A study of Mus musculus with 6 samples.

Results

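The C/D box small nucleolar RNA genes of the mouse, those whose symbol starts with Snord, were followed in Ly6D-negative common lymphoid progenitors, bone marrow cells that stand before the split into the lymphoid lineages. Of 22180 genes that had a probe set with a single symbol, 47 were Snord genes, and each had 1 such probe set. All 47 matched a gene of the RefSeq annotation of assembly GRCm38.p6, where 46 were classed as small nucleolar RNA and Snord73b as small nuclear RNA. The cells came from 3 OcnCre+;iDTR+/- mutant samples and 3 OcnCre-;iDTR+/- control samples, with 1 Affymetrix array per sample and values on the log2 scale. In both groups the mice carried 1 iDTR allele, an inducible diphtheria toxin receptor, and received toxin every day for 4 weeks, and the cells were sorted on the day after the last dose from adults of 6 to 8 weeks. The Cre of the mutants is driven by the osteocalcin promoter, so the toxin is meant to remove osteocalcin-expressing bone cells and not the progenitors themselves. The labels do not say whether a sample was 1 mouse or a pool, so the p-values reflect no more than how these samples vary, and having 3 arrays per group limits the precision. The tissue label names bone marrow stromal cells, but the sorting protocol is that of lymphoid progenitors.

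C/D box small nucleolar RNAs are short nuclear RNAs named after 2 conserved sequence boxes. Most of them pair with ribosomal RNA and guide the methylation of the ribose at the paired site, and a few take part in cutting the ribosomal precursor. In mammals most are cut out of the introns of a host gene, which is often a gene of a ribosomal or nucleolar protein or a long non-coding RNA whose spliced product is not known to encode a protein. The mature RNA is held in a particle with the proteins Fbl, Nop56, Nop58 and Snu13. These RNAs have no poly(A) tail, and the probe sets cannot tell a mature snoRNA from an unspliced or lingering host intron that holds the same sequence.

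The 6 arrays were not equally alike. Over all probe sets the correlation of mutant replicate 2 with any other array was 0.935 to 0.954, while pairs among the remaining 5 arrays reached 0.973 to 0.989. When genes were cut into 10 equal groups by brightness, the brightest group on that array had a median of −0.41 relative to the control mean and the third dimmest a median of 0.17. Xist was at 8.03, 5.57 and 10.72 and the Y-linked Eif2s3y at 7.74, 7.31 and 4.77 in mutant replicates 1, 2 and 3, against Xist at 11.04, 8.07 and 6.57 and Eif2s3y at 4.88, 7.82 and 7.85 in control replicates 1, 2 and 3, so each group held 1 array with low Eif2s3y and with the highest Xist of its group. Of 8 common lymphoid progenitor markers 7 were measured, none of them dim, and their median was 8.48 to 8.67 on the mutant arrays and 8.86 to 9.14 on the control arrays. For lists of other cells the array medians were 9.64 to 10.64 and 9.27 to 10.24 for 8 of 8 myeloid markers, 6.16 to 6.30 and 5.82 to 6.11 for 4 of 6 erythroid markers, 5.60 to 5.83 and 5.73 to 5.94 for 4 of 6 later B markers, 5.08 to 5.48 and 5.33 to 5.95 for 6 of 7 T and NK markers, and 5.19 to 5.57 and 5.27 to 5.71 for 7 of 8 bone and stroma markers, in each case in mutants and in controls. The myeloid medians were thus above those of the progenitor markers in both groups, so these lists do not single out lymphoid progenitors. Log2 array values have no 0, and the part of these other cells in the snoRNA values was not tested.

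None of the Snord genes passed the test between mutants and controls. Of the 47 genes 32 (68.1%) had a lower mutant mean, against 44.6% of all 22180 genes, and the median log2 difference was −0.25, against 0.03 over all genes. Among genes bright enough to be tested the contrast was smaller. There 24 of 36 Snord genes (66.7%) were lower, against 57.5% of tested genes, with medians of −0.22 and −0.04. Most of that difference came from 1 array. Without mutant replicate 2 the median was −0.03, with 26 Snord genes lower and 21 higher. In bulk samples like these, fewer cells of a type and less RNA per cell cannot be told apart.

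Testing covered 13308 genes whose mean over the 6 arrays was at least 4.84, the level below which the dimmest 40% of genes lay. Among them were 36 Snord genes. In limma, with Benjamini-Hochberg adjustment over all tested genes, 0 of 36 passed an adjusted p of 0.05, where 0% of all tested genes passed, and their adjusted p ran from 0.594 to 1. At an unadjusted p under 0.05 in limma, 3 Snord genes (8.33%) were lower, against 6.02% of tested genes, and 0 were higher, against 2.01%. Mutant values lay entirely below control values for 3 tested Snord genes (8.33%), Snord52, Snord87 and Snord88a, where 9.99% of tested genes were lower in this way. For no tested Snord gene did all mutant values lie above all control values, where 5.4% of tested genes did so. These shares for lower genes are near the background and say nothing particular about Snord genes. When arrays were weighted by how well they matched their group, 8 of 36 Snord genes passed (22.2%), 6 lower and 2 higher, and so did 22.2% of all tested genes. Those 8 were Snord17, Snord104, Snord88a, Snord52, Snord73a and Snord89, lower, and Snord92 and Snord69, higher. That fit put a weight of 5.20 on mutant replicate 3 and of 0.21 on mutant replicate 2.

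The 11 genes too dim to be tested were Snord90, Snord1b, Snord70, Snord91a, Snord37, Snord61, Snord42b, Snord58b, Snord19, Snord73b and Snord111. The filter used the mean over both groups, and at its edge Snord88a (4.84) was just inside and Snord111 (4.75) just outside. Snord88a stood at 4.60 ± 0.29 in mutants and 5.07 ± 0.20 in controls (SD, n = 3 each), and Snord52 at 4.80 ± 0.82 in mutants and 5.96 ± 0.47 in controls. Both were above the level for testing only in controls, so their place among the 3 genes without overlap and the 3 of low p supports nothing about the family. When all 22180 genes were tested, 0 Snord genes passed in limma.

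**Figure D1:**
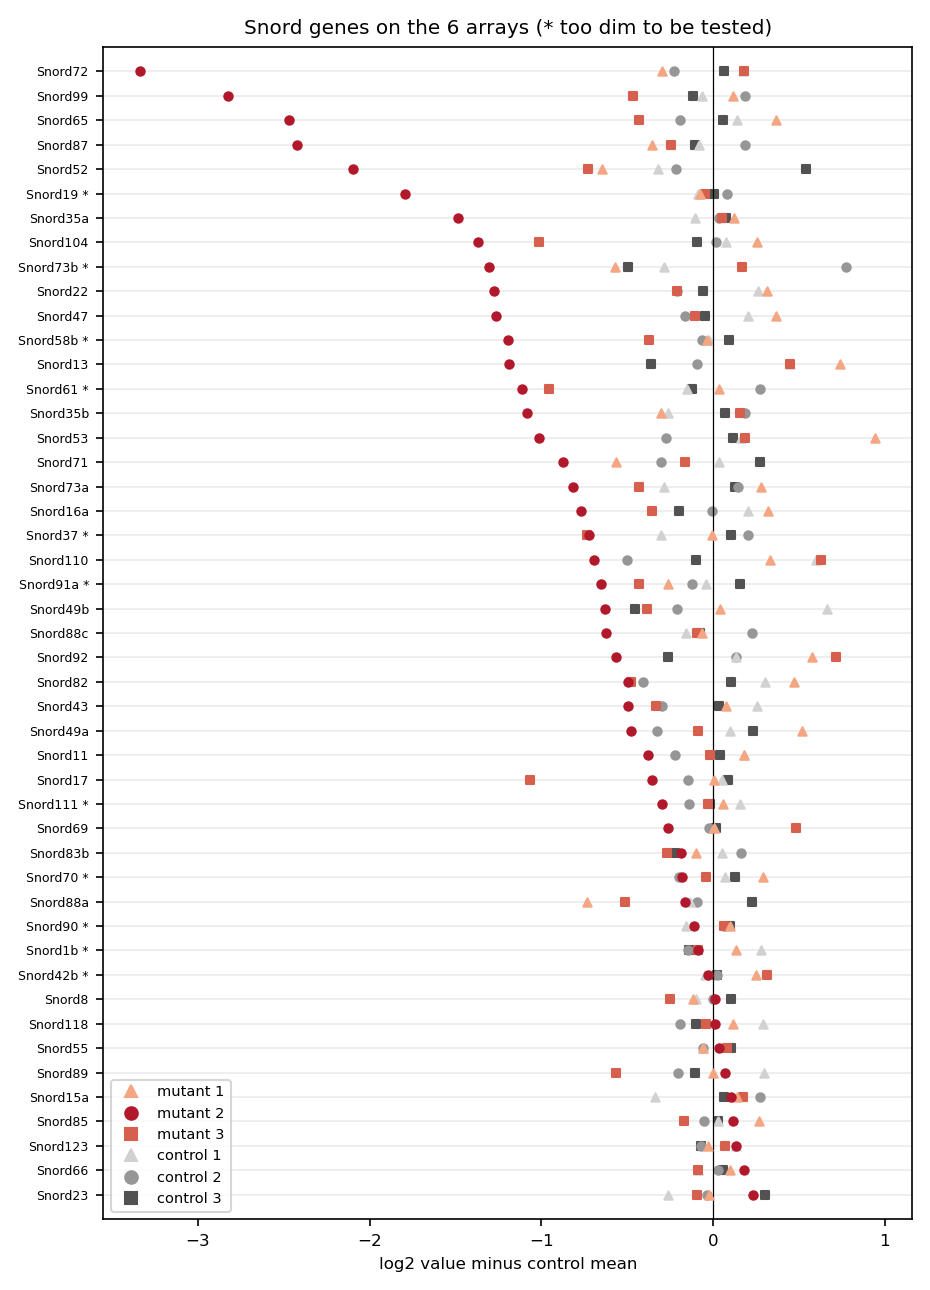
Log2 value minus the control mean (horizontal axis) of each of the 47 Snord genes, with 1 point per array and genes ordered by their value on mutant replicate 2. Mutant replicate 2 reaches −3.33 for Snord72 and lies below the control mean for 38 genes, while the other 5 arrays mostly stay within 1 log2 unit of it.

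The plot of all members by array shows where the low values lay, on mutant replicate 2. It was the lowest of the 6 arrays for 30 of 47 Snord genes (63.8%), against 24.6% of all genes. It lay more than 1 log2 unit below the control mean for 16 Snord genes (34%), against 2.48% of all genes. Among tested genes it was the lowest array for 24 of 36 Snord genes, against 35.9% of tested genes. It was more than 1 below the control mean for 12 of those 36, against 4.03% of tested genes. On mutant replicate 1 no Snord gene was that low, and on mutant replicate 3 there were 2, Snord17 and Snord104. The range on mutant replicate 2 was wide, from −3.33 for Snord72 to 0.23 for Snord23, and 9 genes lay above the control mean there. These shares describe 1 array and carry no test.

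The spread was measured per array as the interquartile range over the 47 genes of each array's deviation from the control mean. For a control array the mean of the other 2 controls was used. The Snord range was 0.33, 1.06 and 0.48 in mutant replicates 1, 2 and 3, against 0.41, 0.41 and 0.30 in control replicates 1, 2 and 3. Genes of like brightness, weighted so that the 10 brightness groups counted as they do among Snord genes, had ranges of 0.22, 0.53 and 0.33 on the mutant arrays and 0.25, 0.21 and 0.21 on the control arrays. Snord genes were therefore more spread than genes of like brightness on every one of the 6 arrays, controls included. Both sets were widest on mutant replicate 2. The H/ACA box (Snora) genes, given below, were more spread in the same way. On mutant replicates 1, 2 and 3 the Snord median was 0.08, −0.62 and −0.10, and on the control arrays 0.05, −0.10 and 0.05, while genes of like brightness had medians from −0.02 to 0.01 on all 6 arrays.

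**Figure D2:**
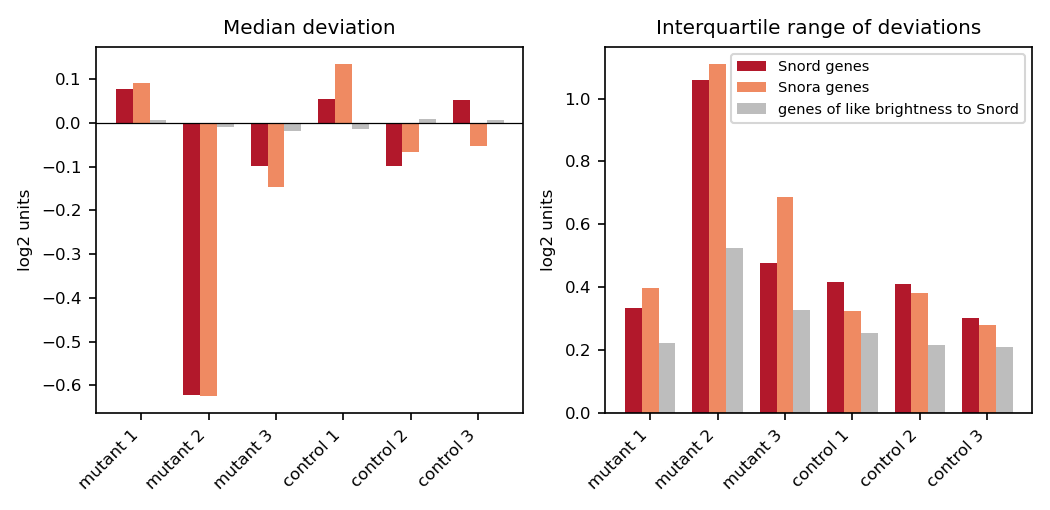
Median (left) and interquartile range (right), in log2 units, of the deviation from the control mean on each array for Snord genes (47), Snora genes (26) and genes of like brightness to Snord. The Snord and Snora medians on mutant replicate 2 are both −0.62. Both Snord and Snora bars exceed those of like brightness in spread on all 6 arrays.

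Gene by gene the same held for the spread within groups. The within-group SD, pooled over the 2 groups, was above the median of the other genes of the same brightness group for 41 of 47 Snord genes. Its median was 0.39 for Snord genes and 0.17 for genes of like brightness. Within the mutants alone the medians were 0.41 and 0.19, and within the controls alone 0.20 and 0.11. The mutant SD was the larger one for 38 of 47 genes, a count for which no share over all genes was taken. Genes of like brightness also had a larger median SD in mutants (0.19) than in controls (0.11).

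Genes with the widest spread within groups were Snord72, Snord99, Snord65, Snord87 and Snord13. Snord72, whose gene lies inside the ribosomal protein gene Rpl37, was at 6.33, 3.29 and 6.81 in mutant replicates 1, 2 and 3, against 6.80, 6.40 and 6.69 in control replicates 1, 2 and 3. Mutant replicate 2 was far below all other arrays, and mutant replicate 3 was on a par with the highest control. The difference of −1.15 ± 0.79 (SE) had an adjusted p of 0.619 in limma and shrank to −0.06 without mutant replicate 2. Snord99, inside the long non-coding gene Snhg12, was at 6.97, 4.03 and 6.39 in mutants, against 6.79, 7.04 and 6.74 in controls. Its difference of −1.06 ± 0.65 was −0.18 without mutant replicate 2. Snord65, inside the long non-coding gene 2410006H16Rik, was at 9.09, 6.25 and 8.29 in mutants and 8.86, 8.53 and 8.78 in controls, with mutant replicate 1 the highest and mutant replicate 2 the lowest of all arrays. The difference was −0.85 ± 0.61, and −0.03 without mutant replicate 2.

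Some Snord genes were lower on more than 1 mutant array. Snord52, inside the long non-coding gene 1110038B12Rik, had the lowest unadjusted p of the tested members, and was tested only through its control level. It was at 5.31, 3.86 and 5.23 in mutant replicates 1, 2 and 3, against 5.64, 5.74 and 6.50 in control replicates 1, 2 and 3. The groups did not overlap, and the difference of −1.16 ± 0.40 (SE) had an adjusted p of 0.594 in limma. Without mutant replicate 2 it was −0.69. Snord87, inside both Snhg6 and Mcmdc2, was at 7.09, 5.02 and 7.20 in mutants, against 7.36, 7.63 and 7.34 in controls. All mutant values were below all control values, yet mutant replicates 1 and 3 only by a small step, and the difference of −1.01 ± 0.52 became −0.30 without mutant replicate 2. Snord88a, inside 2410002F23Rik, was at 4.34, 4.91 and 4.56 in mutants, against 4.94, 4.98 and 5.30 in controls. Here mutant replicate 2 was the highest of the mutants, and the difference of −0.47 ± 0.18 was −0.62 without it (adjusted p = 0.594 in limma with all arrays).

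Snord104, inside the long non-coding gene Gm36220, was one of the brightest members. It was at 10.20, 8.57 and 8.93 in mutants, against 10.02, 9.96 and 9.85 in controls. Mutant replicates 2 and 3 were low and mutant replicate 1 was the highest array of all, so the groups overlapped, with a difference of −0.71 ± 0.37 (adjusted p = 0.594 in limma). It shrank to −0.38 when mutant replicate 2 was dropped and reached −1.19 when mutant replicate 1 was. Snord17, the longest gene of the set at 221 bases and inside the sorting nexin gene Snx5, was at 8.57, 8.21 and 7.50 in mutants, against 8.62, 8.42 and 8.65 in controls. Its low value was on mutant replicate 3, the difference was −0.47 ± 0.25, and it was −0.18 without that array. Snord71, inside the adaptor protein gene Ap1g1 and the non-coding gene Gm17344, was at 6.72, 6.41 and 7.12 in mutants, against 7.32, 6.98 and 7.56 in controls. Its groups overlapped through mutant replicate 3 and control replicate 2 (difference −0.53 ± 0.22, adjusted p = 0.594 in limma).

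**Figure D3:**
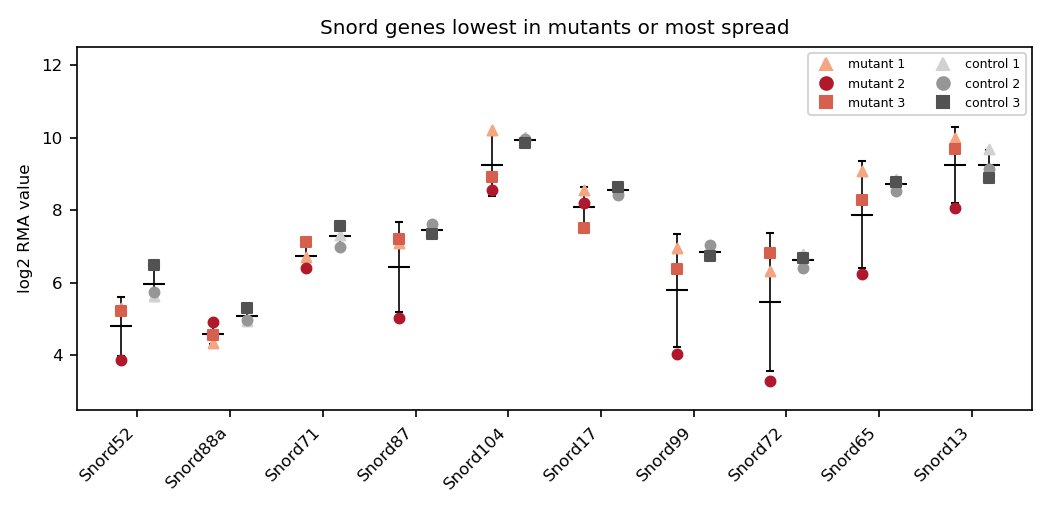
Log2 RMA values of the 8 Snord genes with a lower mutant mean and the lowest unadjusted p, together with Snord65 and Snord13, which were among the 5 most spread. Points are arrays and horizontal bars with whiskers are the mean ± SD of 3 mutant (left of each pair) and 3 control arrays; the mutant SD of Snord72 reaches 1.91.

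Differences in the other direction were small. The 8 tested genes with a higher mutant mean and the lowest p were Snord15a, Snord92, Snord66, Snord85, Snord123, Snord69, Snord110 and Snord23, with differences from 0.04 for Snord23 to 0.24 for Snord92. Snord92, inside the nucleolar protein gene Wdr43, was at 6.12, 4.98 and 6.26 in mutants, against 5.68, 5.68 and 5.28 in controls. Mutant replicates 1 and 3 were above all controls and mutant replicate 2 below them, and the difference of 0.24 ± 0.32 (adjusted p = 0.77 in limma) became 0.65 when mutant replicate 2 was dropped and 0.01 when mutant replicate 3 was. Snord15a, inside Rps3, was at 5.59, 5.55 and 5.62 in mutants, against 5.11, 5.72 and 5.51 in controls, and its mutant values all lay within the control range. Snord110, inside Nop56, was at 5.34, 4.32 and 5.64 in mutants, against 5.61, 4.51 and 4.91 in controls, a wide spread in both groups.

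Members that act in the maturation of ribosomal RNA other than as methylation guides did not share a pattern. Snord118, the U8 RNA needed for maturing the RNAs of the large subunit, was at 6.54, 6.43 and 6.38 in mutants, against 6.71, 6.23 and 6.32 in controls. All mutant values lay within the control range, mutant replicate 2 included, and the difference was 0.03 ± 0.15. Snord13, the U13 RNA that acts on the RNA of the small subunit, was at 9.98, 8.05 and 9.69 in mutants, against 9.69, 9.15 and 8.88 in controls. The mutant mean and the control mean were both 9.24, but the mutants ran from the lowest to the highest of all 6 arrays, and without mutant replicate 2 the difference was 0.60. Snord22, the U22 RNA needed for the small subunit RNA, lies inside Snhg1 and was at 8.36, 6.77 and 7.84 in mutants, against 8.31, 7.84 and 7.99 in controls. Its difference of −0.39 ± 0.36 (adjusted p = 0.688 in limma) was 0.05 without mutant replicate 2.

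Some bright members were not low on mutant replicate 2. Snord8, the brightest member and inside the chromatin remodeller gene Chd8 and the non-coding gene Gm26590, was at 10.07, 10.20 and 9.94 in mutants, against 10.09, 10.19 and 10.29 in controls, a difference of −0.12 ± 0.12. Snord23, inside the nucleolar gene Nop53, was at 8.28, 8.54 and 8.21 in mutants and 8.04, 8.27 and 8.61 in controls. Snord8 had a within-group SD of 0.12, under the median of 0.23 in its brightness group, and Snord23 one of 0.24. On mutant replicate 2 neither was below its control mean, whereas Snord47, inside Gas5, was at 7.24 there, against 8.87 and 8.40 on mutant replicates 1 and 3 and 8.71, 8.34 and 8.46 in controls. Across the 47 genes the deviation from the control mean on mutant replicate 2 was only weakly related to mean level (r = −0.15, Spearman's rho = −0.15). This is a description, since all points come from the same arrays. The same held for gene length, which ran from 48 to 221 bases with a median of 68 (r = 0.24, rho = 0.27).

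Among the dim members, whose low values cannot be separated from background, Snord91a had groups that did not overlap. It was at 3.36, 2.97 and 3.19 in mutants, against 3.58, 3.50 and 3.78 in controls. Counting dim genes too, 4 Snord genes (8.51%) were lower without overlap, against 6.72% of all genes, and 0 were higher, against 7.86%. Snord19, inside the nucleolar GTPase gene Gnl3, was even on 5 arrays and low on 1, at 4.73, 3.01 and 4.76 in mutants, against 4.72, 4.89 and 4.81 in controls. Snord61, inside the RNA-binding protein gene Rbmx, was at 4.09, 2.94 and 3.10 in mutants, against 3.90, 4.33 and 3.93 in controls, so mutant replicates 2 and 3 were both low. Snord42b, inside Rpl23a, was at 4.27, 3.99 and 4.33 in mutants and 3.97, 4.04 and 4.04 in controls, with 2 of the mutants slightly above all controls.

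By position in the RefSeq annotation, 44 of the 47 genes lay within the span of another gene, and Snord118, Snord13 and Snord89 did not. The table gives no strand, so a span does not prove that the gene is an intronic passenger. Genes within a long non-coding gene, alone or with a protein-coding one (13), had a median difference of −0.39 and a median of −1.27 on mutant replicate 2. Those within a gene of a ribosomal protein or translation factor (14) stood at −0.29 and −0.74, and those within other protein-coding genes (17) at −0.07 and −0.38. Without mutant replicate 2 the median differences were −0.17, −0.06 and 0.01. Of a separate list of snoRNAs known to come from ribosomal protein genes 10 were measured, 7 tested and 0 called, with 7 of the 10 lower and a median of −0.26, which was −0.04 without mutant replicate 2. Of those known to come from genes of nucleolar particle proteins 6 were measured, 5 tested and 0 called, with 2 of the 6 lower and a median of 0.03, against 1 lower and 0.30 without mutant replicate 2. The classes were set up with the values known and share the same arrays, so the order of the medians is a description.

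For 35 Snord genes exactly 1 of the surrounding genes had a measured value, which gave 27 different hosts. On mutant replicate 2 the median over these pairs was −0.62 for the Snord genes and −0.53 for the hosts, and the Snord gene was the lower of the pair in 20 of 35. These medians have unlike backgrounds, since most of the hosts were bright. On that array the brightest group of all genes had a median of −0.41, and genes of like brightness to Snord had −0.01. The deviations of Snord gene and host on that array correlated at r = 0.42 (rho = 0.35, across 35 pairs that share an array and in part a host). Several long non-coding hosts were low there, while Snhg18, the dim host of Snord123, stood at 0.24. Snhg1 was at 9.77, 7.94 and 9.45 in mutants, against 9.70, 9.42 and 9.61 in controls, next to the Snord22 values above. Snhg6, which holds Snord87, was at 10.54, 7.89 and 10.40 in mutants and 10.33, 10.07 and 10.11 in controls, and Snhg12 at 8.38, 6.33 and 8.31 in mutants and 8.24, 8.04 and 8.06 in controls. Host and snoRNA could also part. Rps3 was 1.11 below its control mean on mutant replicate 2 (deviation −1.11), while Snord15a inside it was at 0.10.

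**Figure D4:**
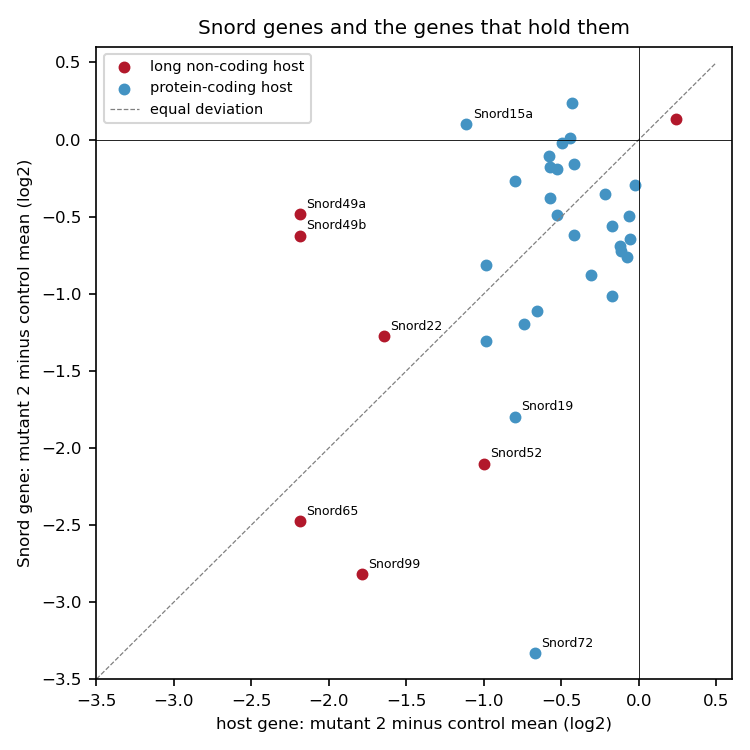
Deviation of the host gene (horizontal axis) and of the Snord gene within it (vertical axis) from their control means on mutant replicate 2, in log2 units, for 35 pairs; the dashed line marks equal deviation. The pairs scatter on both sides of the line (r = 0.42), with Snord72 far below it and Snord49a and Snord49b above it.

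Snord genes within the same host were far apart on mutant replicate 2 in some hosts and closer in others. The non-coding gene 2410006H16Rik holds 3 of them, and on mutant replicate 2 the host stood at −2.19, Snord65 at −2.48, Snord49b at −0.62 and Snord49a at −0.48. In Gnl3, at −0.80 on that array, Snord19 was at −1.80 and Snord69 at −0.27. Wdr43 was at −0.18, with Snord53 at −1.01 and Snord92 at −0.56. In Rps3a1, at −0.99, Snord73a was at −0.815 and Snord73b at −1.305, both low. Nop58 was at −0.57, with Snord11 at −0.38 and Snord70 at −0.18. Rpl3 was at −0.53, with Snord43 at −0.49 and Snord83b at −0.19. In 2410002F23Rik, at −0.42, Snord88a was at −0.16 and Snord88c at −0.62. On mutant replicate 1 the pair in Wdr43 stood at 0.95 for Snord53 and 0.58 for Snord92, the first being the highest Snord deviation on that array. Snord genes of 1 host are not independent of each other, and neighbouring probe sets may read the same transcript.

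Other small RNA genes were set beside them. The 26 H/ACA box genes (Snora), whose RNAs guide the change of uridine to pseudouridine, had 21 with a lower mutant mean (80.8%) and a median difference of −0.22, against 15 and −0.10 without mutant replicate 2. Their median on mutant replicate 2 was −0.62, with an interquartile range of 1.11, close to the Snord values of −0.62 and 1.06. It was more than 1 below the control mean for 8 of 26 (30.8%). The low and wide values on mutant replicate 2 were therefore shared by both kinds of snoRNA gene. So was the wider spread on the other arrays. The Snora interquartile range was 0.40 and 0.69 in mutant replicates 1 and 3, where genes of like brightness to Snora had 0.23 and 0.34. In control replicates 1, 2 and 3 it was 0.325, 0.38 and 0.28, against 0.25, 0.21 and 0.21. The median within-group SD was 0.35 for Snora genes and 0.18 for genes of like brightness. The 5 genes of small Cajal body RNAs had a median of 0.67 on that array, and the 483 microRNA genes, most of them dim, one of 0.15. In limma 0 of 22 tested Snora genes passed.

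Proteins of the C/D box particle differed little between the groups. Of the core genes 3 were measured by a probe set of their own, all with a lower mutant mean and none past the threshold. Nop56, a scaffold protein of the particle, was at 9.20, 8.91 and 8.69 in mutants, against 9.16, 8.98 and 8.97 in controls. Its partner Nop58 was at 9.23, 8.35 and 8.97 in mutants, against 9.03, 8.88 and 8.86 in controls. Snu13, which binds the folded box motifs, was at 10.39, 9.64 and 9.99 in mutants, against 10.16, 10.02 and 10.23 in controls. In all of these genes the groups overlapped, with differences of −0.07 to −0.13. Without mutant replicate 2 they were −0.09 for Nop56, 0.18 for Nop58 and 0.05 for Snu13. Fbl, the methyltransferase, was not analysed here.

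Of 11 measured genes that assemble or modify the particle 10 were tested, 0 passed, and 8 of those 10 had a lower mutant mean (80%, against 57.5% of tested genes), with a median of −0.21. Without mutant replicate 2, 6 of all 11 were lower, with a median of −0.07, against −0.13 with it. The lowest p values belonged to Nolc1, a nucleolar chaperone (−0.37 ± 0.16, SE), Ruvbl1, an ATPase of the assembly complex (−0.28 ± 0.14), and Pih1d1, an adaptor of that complex (−0.30 ± 0.17). Among 13 tested genes of intron debranching and RNA trimming 0 passed and 10 were lower (76.9%, against 57.5% of tested genes). Their median was −0.16, and −0.08 without mutant replicate 2. On mutant replicate 2 the median of these 13 was −0.415, where the brightest group of all genes had −0.409. Those lower included the exosome gene Exosc9 (−0.31 ± 0.16), the debranching enzyme gene Dbr1 (−0.26 ± 0.17) and the exonuclease gene Xrn2 (−0.31 ± 0.20). Of 18 measured long non-coding host genes 15 were tested and 0 passed. Lower were 12 of those 15 (80%, against 57.5% of tested genes, median −0.31), led by Snhg3 (−0.69 ± 0.26), Snhg20 (−0.62 ± 0.31) and Snhg5 (−0.57 ± 0.31). Their median over all 18 was −0.63 on mutant replicate 2, against 0.12 and −0.03 on mutant replicates 1 and 3, and without mutant replicate 2 the median difference was 0.04. Adjusted p in limma was at least 0.594 for each gene of these lists. Neither Gas5 nor Snhg8 was analysed here.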

How the data were processed

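Each array is given as log2 intensities per probe set, deposited by the authors after RMA according to the submitters' processing notes. The RMA version, probe annotation and genome build: not given in the sources used here. Per the labels' protocols, Trizol RNA was amplified with a NuGEN Ovation kit, and the biotin-labelled cDNA was hybridised. RMA leaves no detection call. Gene names came from a platform annotation table, in which 23521 of 41345 probe sets had 1 symbol and were used, and 1814 had several. Each of 22180 genes was represented by its brightest probe set, and the dimmest 40% were not tested. Groups came from the source labels and replicate numbers from the titles. Mutants were set against controls with limma 3.58.1 in R 4.3.3 (2-sided moderated test, lmFit then eBayes, p adjusted over 13308 genes by Benjamini-Hochberg), and the code was tested on simulated data. The alternatives changed the filter, the probe set per gene, the prior, the normalization, the centring, the weights, the block and the arrays included. The deviations of arrays with the same number correlated at 0.13, 0.20 and −0.13, and those of arrays with unlike numbers at −0.23 to 0.20. These values show no pairing by number, but with 3 arrays per group they cannot exclude one. Snord genes were named by rule (the 8 tested ones of lowest unadjusted p in each direction, the 5 with the widest within-group SD, the 5 brightest), and others after their values were seen, for their host or role. Of each list on the particle, its assembly, decay or hosts, the 3 genes of lowest p were named, with all measured core proteins and Snhg1, and marker lists were given as array medians. Members and lists were chosen with earlier results of these data known. Hosts are RefSeq genes (GRCm38.p6) whose span holds the Snord gene. Figures were drawn with matplotlib 3.10.9.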

Additional observations from a re-analysis of the deposited data

How the results depend on the processing

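The count of genes past an adjusted p of 0.05 in limma was 0 over all genes and 0 among Snord genes, and at an unadjusted p under 0.05 it was 801 lower and 267 higher genes. Both counts past the threshold were 0 too with no filter on dim genes, with 60% left out, with the mean of all probe sets, a trended robust prior, the unmoderated test, repeated quantile normalization, cyclic loess and centring. A fit with the replicate number as a block, although no pairing by number was seen, gave 0 for both. With array weights 2960 genes and 8 Snord genes passed. Leaving out 1 array gave 0 to 4 genes, 4 without mutant replicate 1 and 1 without mutant replicate 2, and 0 Snord genes in each case. The Snord median difference of −0.25 was between −0.31 and −0.13 under the other scalings and weights, was −0.41 when mutant replicate 1 was dropped and −0.03 when mutant replicate 2 was. Centring gave 41 lower Snord genes against 32, and dropping 1 array 26 to 39. The Snord interquartile range on mutant replicate 2 was 0.75 after cyclic loess and 0.85 after repeated quantile normalization, against 1.06. That of genes of like brightness shrank too, to 0.41 and 0.44, against 0.53. When another array was dropped the Snord range was 1.02 to 1.14, and it has no value without mutant replicate 2. Some signs turned, and the cause was not tested. With array weights Snord72, at −1.15 without them, was at 0.051, Snord66 at −0.084, Snord85 at −0.127 and Snord23 at −0.145. Repeated quantile normalization gave −0.009 for Snord85, −0.022 for Snord123 and 0.047 for Snord8, and cyclic loess gave −0.009, −0.030 and 0.115. Centring gave −0.001 for Snord66, −0.007 for Snord123, −0.028 for Snord23 and −0.064 for Snord13. On leaving out 1 array Snord110 ran from −0.182 to 0.481, Snord13 from −0.369 to 0.597, Snord15a from −0.031 to 0.278, Snord23 from −0.096 to 0.189, Snord47 from −0.683 to 0.133, Snord69 from −0.127 to 0.250 and Snord85 from −0.025 to 0.191. Without a detection call, dim values have no floor.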

Other observations

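A further 33 probe sets list a Snord gene together with other genes and entered no comparison above, since their signal cannot be given to 1 gene. Of these, 16 are annotated to the same 3 genes (Gm26504, Snord116l1 and Snord116l2, of the imprinted Snrpn domain, whose snoRNAs are best known from neurons) and hold identical values on every array, so they are 1 measurement. It stood at 4.19, 9.04 and 6.56 in mutant replicates 1, 2 and 3, against 4.33, 4.38 and 4.30 in control replicates 1, 2 and 3. Mutant replicates 2 and 3 were 4.71 and 2.22 above the control mean, opposite to most Snord genes on mutant replicate 2, and mutant replicate 1 was at the control level. On mutant replicate 2, 38 of the 41345 probe sets, these 16 among them, were at least as far above their control mean, and 321 were 2 or more above it. Of 7 single-symbol genes of that domain, Ube3a and Peg12 were tested and did not pass in limma, with differences of −0.35 ± 0.13 and −0.42 ± 0.17 (SE, adjusted p = 0.594 for both), and Ube3a was lower on all mutant arrays. The other 5 were dim, and of these Mkrn3 was slightly higher on all mutant arrays (difference 0.19). Snhg14 was at 2.88, 2.94 and 3.02 in mutants and 3.00, 2.98 and 2.86 in controls, and Ipw at 4.44, 5.29 and 4.80 in mutants and 4.79, 4.68 and 4.66 in controls.

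The other 17 shared probe sets, most of which name a Snord gene with its host, resembled the Snord genes with a probe set of their own. Their median was 0.22, −0.86 and −0.12 in mutant replicates 1, 2 and 3 relative to the control mean, and on mutant replicate 2, 7 of 17 were more than 1 below it. The groups differed by a median of −0.17, with 10 lower and 7 higher in mutants.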
